A study of Mus musculus with 2 samples.

Results

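The genes described here are Glis3 and its relatives among the Krüppel-like zinc finger transcription factors, taken by name: Glis1 to Glis3, Gli1 to Gli3, Zic1, Zic2, Zic4, Zic5, Klf1 to Klf17 and Sp1 to Sp8. They are 35 genes. A probe for 34 of them was named on the array, and 33 were measured above background, out of 16795 named genes and 16515 above background. Klf14 had no named probe. Gli3 had 1 probe, and neither genotype was well above background on both arrays.

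The series compared the pancreas of newborn mice homozygous for a mutant Glis3 allele, Glis3zf/zf, named Glis3KO in the labels, with that of wild-type (WT) mice. Both were taken at postnatal day 3 (P3), and each genotype is a pool of RNA from 2 pups. The same pair of pools was hybridised to 2 Agilent whole mouse genome arrays of the two-colour kind, with the mutant in Cy5 and WT in Cy3 on one array and the dyes exchanged on the other. There is thus 1 sample per genotype, the arrays are technical repeats, no test was possible, and the spread between animals is unknown for every value. The sources used here do not describe what the zf allele removes, and they name no strain or sex.

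Krüppel-like factors bind DNA through tandem C2H2 zinc fingers, in which pairs of cysteines and histidines hold a zinc ion. Gli proteins carry the Hedgehog signal into the nucleus, the Glis and Zic proteins share their type of finger domain, and the Sp and Klf proteins bind GC-rich and CACCC sequences in promoters. Within the pancreas, Glis3 is known for its role in beta cells, where it acts on the insulin gene. Since whole pancreas was used, fewer cells of a type and less RNA per cell cannot be told apart in any value below.

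Because the GC box (GGGCGG) is among the elements that Sp and Klf proteins read, the start sites of the genes themselves were searched for it on both strands. RefSeq promoters of assembly GRCm38.p6, running from 250 bases before to 50 after a start site, were at hand for 26 of the 35 genes. The GC box occurred in 21 of these 26 genes (80.8%), against 38.2% of all 27025 genes in the table and 49.2% of the 17492 protein-coding ones. Base composition differed as well, with a median GC content of 62.8% over the 32 promoters of these genes and 56.3% over those of protein-coding genes. The CACCC box of Klf1 type (CCACACCC) occurred in 2 of 26 (7.69%) against 4.09% of all genes, in Klf12 and Klf17. A Gli site (TGGGTGGTC) occurred in 0 of 26 against 0.289% of all genes, so its letters are in none of these windows. The promoter of Glis3, the mutated gene, is printed with those of Klf2, Gli2 and Zic4, which had the largest ratios in size among the measured genes with a promoter in the table, and which differ in their GC boxes. They lie at chr19:28680028-28680327 on the minus strand with 3 GC boxes, at chr8:72318812-72319111 on the plus strand with 2, at chr1:119053570-119053869 on the minus strand with 1, and at chr9:91368722-91369021 on the plus strand with 0. Each reads 5′ to 3′ along the gene, and capitals mark a GC box on either strand (CCGCCC is its reverse complement). A match is a description of the letters, and no binding was measured.
Glis3: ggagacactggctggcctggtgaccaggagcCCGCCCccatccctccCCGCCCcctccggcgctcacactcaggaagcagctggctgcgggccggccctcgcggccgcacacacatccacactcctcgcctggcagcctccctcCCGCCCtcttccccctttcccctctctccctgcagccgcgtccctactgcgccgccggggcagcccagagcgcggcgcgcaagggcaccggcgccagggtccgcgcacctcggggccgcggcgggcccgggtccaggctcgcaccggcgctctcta
Klf2: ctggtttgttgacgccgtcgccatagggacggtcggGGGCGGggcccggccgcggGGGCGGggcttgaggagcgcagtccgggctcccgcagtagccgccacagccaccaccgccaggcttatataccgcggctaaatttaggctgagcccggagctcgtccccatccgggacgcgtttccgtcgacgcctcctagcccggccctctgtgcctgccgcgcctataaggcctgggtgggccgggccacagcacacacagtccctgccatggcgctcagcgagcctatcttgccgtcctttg
Gli2: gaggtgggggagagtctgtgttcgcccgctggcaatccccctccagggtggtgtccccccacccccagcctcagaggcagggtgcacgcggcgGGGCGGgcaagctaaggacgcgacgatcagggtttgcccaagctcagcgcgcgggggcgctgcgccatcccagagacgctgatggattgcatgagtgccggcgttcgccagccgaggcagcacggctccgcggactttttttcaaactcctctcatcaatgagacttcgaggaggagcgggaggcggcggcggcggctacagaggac
Zic4: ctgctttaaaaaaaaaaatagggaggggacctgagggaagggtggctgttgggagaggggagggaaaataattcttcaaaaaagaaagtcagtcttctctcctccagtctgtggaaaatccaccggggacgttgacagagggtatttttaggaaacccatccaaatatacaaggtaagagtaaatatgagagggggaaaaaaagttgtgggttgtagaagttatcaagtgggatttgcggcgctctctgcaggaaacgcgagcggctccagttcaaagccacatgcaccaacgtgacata

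Glis3, the mutated gene, had a log2 ratio near 0 once the arrays were normalised. Its probe (transcript NM_175459) had a mean spot signal of 115 in the mutant and 155 in WT with the mutant in Cy5, and 128 in the mutant and 115 in WT with the mutant in Cy3, before any dye correction. After background correction and loess, its log2 ratio of mutant over WT was -0.018 on the first array and 0.013 on the second, with a mean of -0.003 ± 0.022 (SD, 2 arrays). The arrays lay on opposite sides of 0. The technical SD in its class of brightness, described below, was larger than the SD of its 2 arrays, at 0.078. The single probe lies at chr19:27594259-27597792 in the coordinates of the files, over 3534 bp, so its match is split on the genome. No source used here names the genome build, and the place of the probe relative to the zf change is not known, so Glis3 does not check the labels. Its spots were also dim: a signal under 152, which is 2 times the highest 95th percentile of the negative controls in any channel, was counted as dim.

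Across the family the mutant and WT pools differed little. The 2-fold rule asked for a mean change of 2-fold or more and for 1.5-fold or more on both arrays alike in direction. It was passed by 0 members, and by 63 of 16515 genes (0.381%), 38 higher (0.23%) and 25 lower (0.151%). The 1.5-fold rule asked for a mean of 1.5-fold and for 1.2-fold on both arrays. It was also passed by 0 members, and by 172 genes (1.04%), 88 higher (0.533%) and 84 lower (0.509%). The 1.2-fold rule asked only for 1.2-fold or more on both arrays with the same sign, and 2 members passed it, Klf2 and Klf5, both higher in the mutant. In that direction it was reached by 282 genes (1.71%), and in either direction by 707 (4.28%), so 2 of 33 (6.06%) is a small count to read against that background. The median ratio of the 33 members was 0.015, against 0.004 for all genes. By size, 28 of the 33 (84.8%) lay within 0.1 log2 of 0, against 64.4% of all genes, and 31 (93.9%) lay within 0.2, against 87.6%. Their median size was 0.043 log2, against 0.070 for all genes. These shares and sizes hold for a background correction with offset 50, which shrinks the ratios of dim spots. With offset 0, Zic5 (0.24), Klf3 (0.112), Klf8 (0.101) and Klf13 (0.11) also lay beyond 0.1. The shares of all genes within 0.1 or 0.2 were not counted in the other settings. Only 16 members (48.5%) had the same sign on both arrays, 10 above 0 and 6 below, against 63.0% of all genes.

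**Figure D1:**
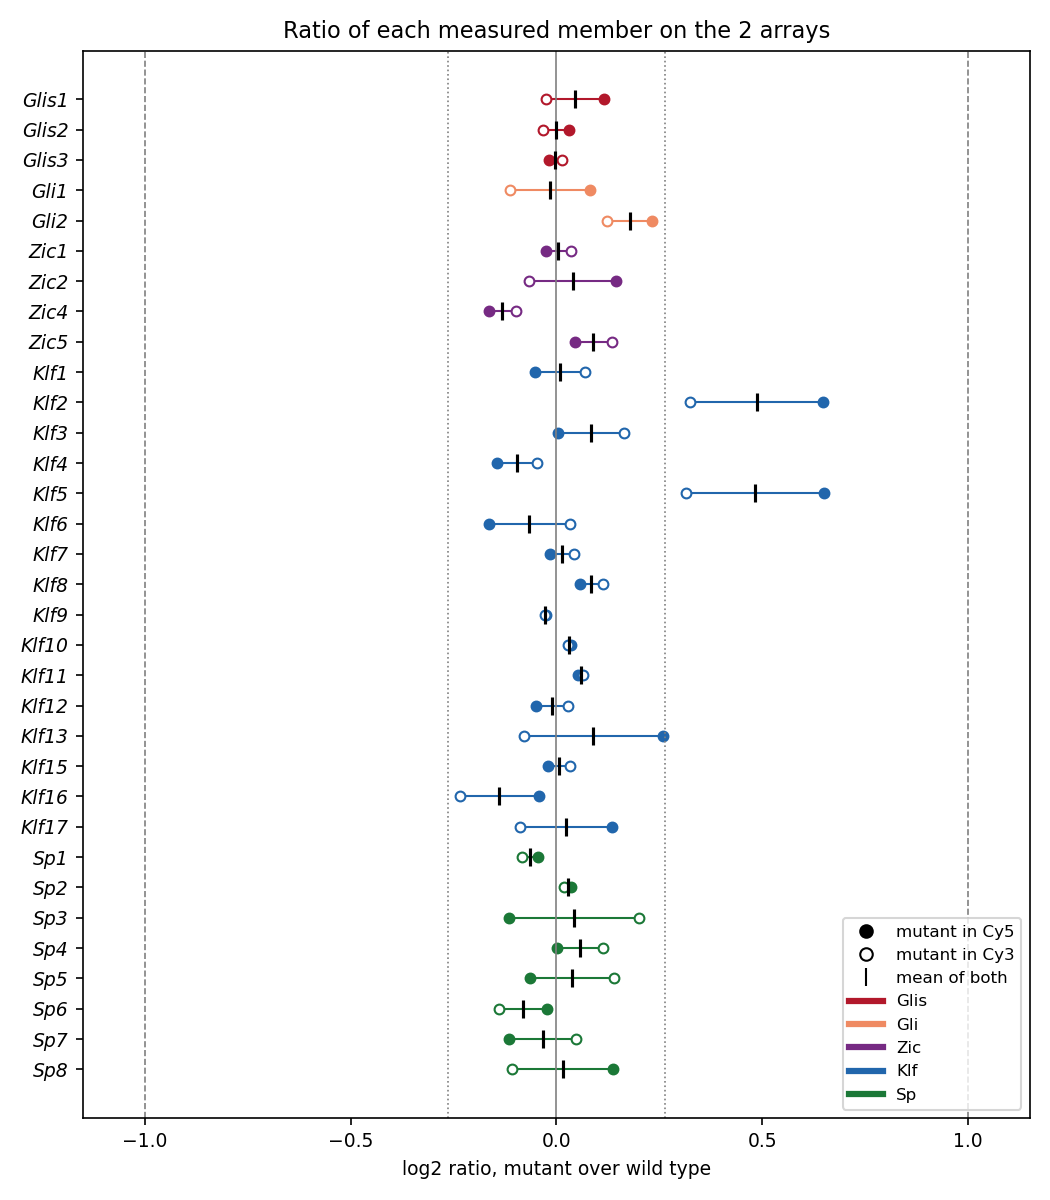
Log2 ratio of mutant over wild type (horizontal axis) for each of the 33 measured members, with 1 point for each array and the mean. Klf2 and Klf5 lie above 0.3 on both arrays, and the means of the other 31 lie between -0.14 and 0.18.

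The precision of these values comes from the dye swap alone. Among genes not past the 2-fold rule, the technical SD, taken from the difference between the dye orientations, was 0.079 log2. It lay between 0.066 and 0.104 over 10 classes of brightness. The difference also holds any dye bias of a probe, which cancels in the mean of the 2 arrays. This SD is therefore only a rough guide to the precision of a mean ratio. The members' 2 arrays differed by a median of 0.113 log2, against 0.094 for all genes. Of the 33, 8 were dim in at least 1 channel on the probe used (Glis3, Zic5, Klf1, Klf16, Sp2, Sp4, Sp5 and Sp8). The Zic5 probe had a signal of 74.7 in the mutant with the mutant in Cy5. That signal was below the highest negative-control percentile, 76.2 in Cy3, but above the 60.8 of its own channel. Local background had a median of 46.5 to 50 in the channels, and the share of spots that the software held well above it ran from 94.0% to 96.8%.

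**Figure D2:**
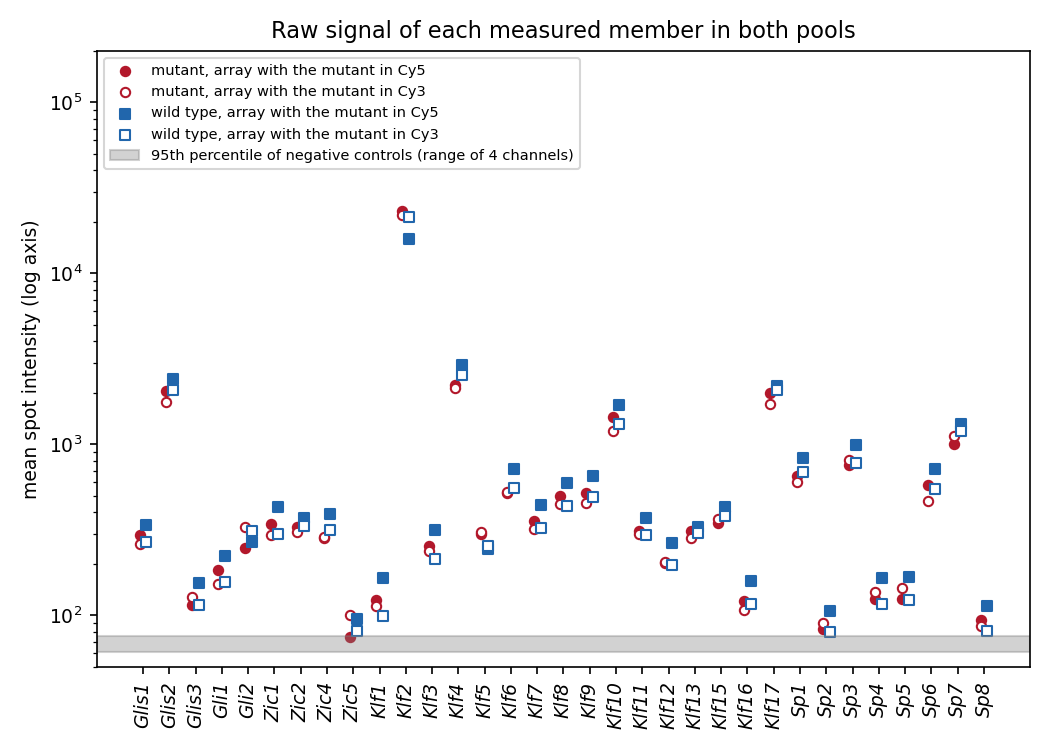
Mean spot signal of each member in the mutant and wild-type channels of both arrays, before normalisation, on a log axis. The grey band is the 95th percentile of the negative controls, from 60.8 to 76.2 over the channels. The mutant points of Klf5 lie above its wild-type points on both arrays. Signals of different genes are not comparable.

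The other Glis genes had ratios near 0. Glis1, a relative known from reprogramming, had log2 ratios of 0.12 and -0.03 with a mean of 0.05. For Glis2, a kidney factor linked to nephronophthisis, they were 0.03 and -0.03, and a second probe of the gene had a mean of -0.019. All 3 Glis genes changed sign between the arrays.

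Gli2, the main activator of Hedgehog targets, had the highest mean of the Gli, Glis and Zic genes. Its brighter probe had a signal of 248 in the mutant and 268 in WT with the mutant in Cy5, and of 329 and 312 with the mutant in Cy3. The log2 ratios were 0.23 and 0.12, with a mean of 0.18 ± 0.08 (SD, 2 arrays). Both arrays put the mutant higher. The other Gli2 probe, within 1641 bp of it end to end, had -0.06 and 0.13 with a mean of 0.03, so it did not show the same difference. Both Gli2 probes were named from the description on the array, as the accession given there is a retired predicted transcript. Gli1, itself a Hedgehog target, had 0.08 and -0.11. For Gli3, the main repressor form of the pathway, the signals were 62.4 in the mutant and 84.1 in WT with the mutant in Cy5, and 75.9 and 65.1 with the mutant in Cy3. No ratio is given for it, because neither genotype was well above background on both arrays.

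The Zic genes, which pattern the neural tube and neural crest, had means between -0.13 and 0.09, with Zic4 the lowest. Zic4 had a signal of 282 in the mutant and 390 in WT with the mutant in Cy5, and of 286 and 316 with the mutant in Cy3. Its log2 ratios were -0.16 and -0.10, with a mean of -0.13 ± 0.05 (SD, 2 arrays), so this probe was lower on both arrays. A clone sequence without a gene name here, but described as Zic4, was higher on both, with a mean of 0.15. Zic1, the direct neighbour of Zic4 on chromosome 9, had a mean of 0.005 and a second probe at 0.017. Zic2 had 0.15 and -0.07. Zic5, the next gene to Zic2 on chromosome 14, had 0.05 and 0.13 with a mean of 0.09, from a dim probe, and its mean was 0.31 with the software's ratios and 0.24 with offset 0. Over the 9 measured Gli, Glis and Zic genes the median was 0.005, 2 were above 0 on both arrays, 1 was below on both and 6 changed sign.

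Klf5, which promotes the growth of epithelial progenitor cells, passed the 1.2-fold rule as higher in the mutant pool also with the software's ratios, with offset 0 in the background correction and with median centring, the settings that can change the value of a gene with a single probe on both arrays. Its single probe (NM_009769; chr14:93828285-93838017 in the coordinates of the files) had a signal of 299 in the mutant and 243 in WT with the mutant in Cy5, and of 308 and 253 with the mutant in Cy3. The mutant signal was the brighter one in both dyes. The log2 ratios were 0.65 and 0.32, with a mean of 0.48 ± 0.24 (SD, 2 arrays), which is 1.40-fold. Of all genes, 121 (0.733%) had a higher mean, and the technical SD in its class of brightness was 0.076. With the ratios made by the scanner software the mean was 0.61, or 1.52-fold, and Klf5 then passed the 1.5-fold rule, as did 270 of all 16515 genes (1.63%) with those ratios, against 172 before. Klf12, a repressor gene that lies next to Klf5 on chromosome 14, had a mean of -0.011 and a second probe at 0.07.

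For Klf2, a factor of endothelial cells and quiescent T cells, the result rests on which probe is read. The brighter probe (NM_008452; chr8:71468754-71468813 in the coordinates of the files) had a signal of 23217 in the mutant and 15908 in WT with the mutant in Cy5, and of 21950 and 21484.5 with the mutant in Cy3. Its mutant signal was clearly brighter on the first array and nearly equal on the second. The log2 ratios were 0.65 and 0.32, with a mean of 0.49 ± 0.23 (SD, 2 arrays), or 1.40-fold, and 116 genes (0.702%) had a higher mean. The other Klf2 probe lies within 1333 bp of the first, end to end, and had signals of 3318 and 4117 in mutant and WT, then 3227 and 3735. Its log2 ratios were -0.07 and 0.01, with a mean of -0.03, so it did not separate the genotypes. Taken as the median over both probes, Klf2 had 0.23 and left the 1.2-fold rule. With median centring in place of loess, the brighter probe had 0.80 and 0.08, and Klf2 left the rule as well. The class of brightness of Klf2 had the largest technical SD, 0.104.

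**Figure D3:**
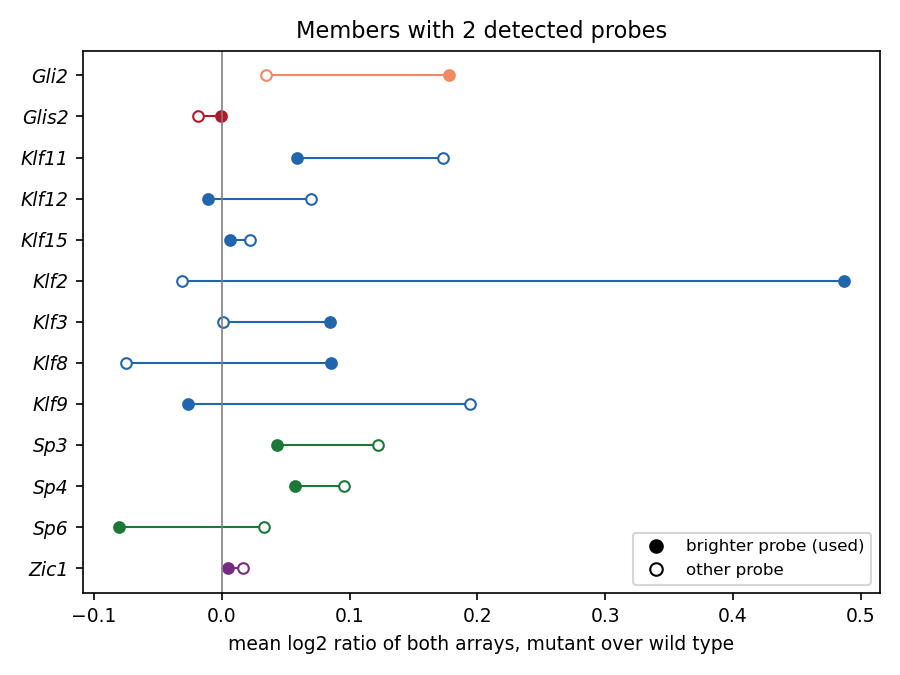
Mean log2 ratio of mutant over wild type for the 13 members with 2 detected probes, with the brighter probe filled and the other open. The probes of Klf2 lie 0.52 apart, and those of Klf9, the next widest, 0.22.

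Among all 13 members with 2 probes, the probes differed by a median of 0.084 log2, close to the 0.081 of the 4145 genes of the array with 2 detected probes, and 8 of the 13 pairs had the same sign. Klf9, a gene induced by glucocorticoid and thyroid hormone, had means of -0.03 and 0.19. The pair for Klf11, a factor that binds the insulin promoter and is linked to a form of diabetes of the young, had 0.06 and 0.17, and that for Klf8, a repressor, 0.09 and -0.08. The second probes of Klf9 and Klf8 were dim, with signals down to 147 and 111. For Klf3, a repressor that works through CtBP, the means were 0.08 and 0.001. Klf15, a regulator of glucose and amino acid metabolism, had 0.006 and 0.022.

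Without Klf2 and Klf5, the other 14 measured Klf genes ran from -0.14 to 0.09 with a median of 0.012, 4 above 0 on both arrays, 3 below and 7 changing sign. Klf16 was the lowest. It had a signal of 121 in the mutant and 158 in WT with the mutant in Cy5, and of 108 and 116 with the mutant in Cy3, and log2 ratios of -0.04 and -0.23 with a mean of -0.14 ± 0.14 (SD, 2 arrays). Its low value came mostly from 1 array, on a dim probe, and its mean was -0.26 with offset 0. Klf4, a pluripotency factor that is also made by epithelia and vessels, had -0.14 and -0.05. Klf6, induced early after injury, had -0.16 and 0.03. Klf13, which acts in lymphocytes and heart, had 0.26 and -0.08, so its arrays disagreed in sign. Klf10, an early target of TGF-beta, had a value near 0.03 on both arrays. Klf1, the master factor of red cell genes, had a mean of 0.010, Klf7, a factor of neurons, 0.014, and Klf17, a factor of germ cells and early embryos, 0.023. A clone sequence without a gene name here, but described as Klf7, was lower on both arrays, with a mean of -0.19.

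The Sp genes ran from -0.08 to 0.06, and all 8 lay within 0.1 of 0, with a median of 0.021. Sp1, expressed in almost all cells, had -0.04 and -0.08, both slightly lower. Sp3, which can activate or repress the same sites, had -0.11 and 0.20, on opposite sides of 0, and its second probe had a mean of 0.12. Sp2, which binds the same type of promoter, had a mean of 0.03, and the neuronal factor Sp4 had 0.06. Sp5, a Wnt target, had 0.04, and Sp6, a factor of teeth and skin, had -0.08 with a second probe at 0.03. Sp7, or osterix, which directs bone-forming cells, had -0.11 and 0.05, and Sp8, a limb and forebrain factor, had 0.14 and -0.11. The members hold 6 pairs that are direct neighbours among protein-coding genes (Sp2 with Sp6, Sp4 with Sp8, Sp7 with Sp1, Klf5 with Klf12, Zic5 with Zic2, Zic1 with Zic4). Klf2 and Klf5, the only members past the 1.2-fold rule, are not such a pair. No pair could therefore have both genes past it, and nothing about neighbours is drawn from the rule.

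**Figure D4:**
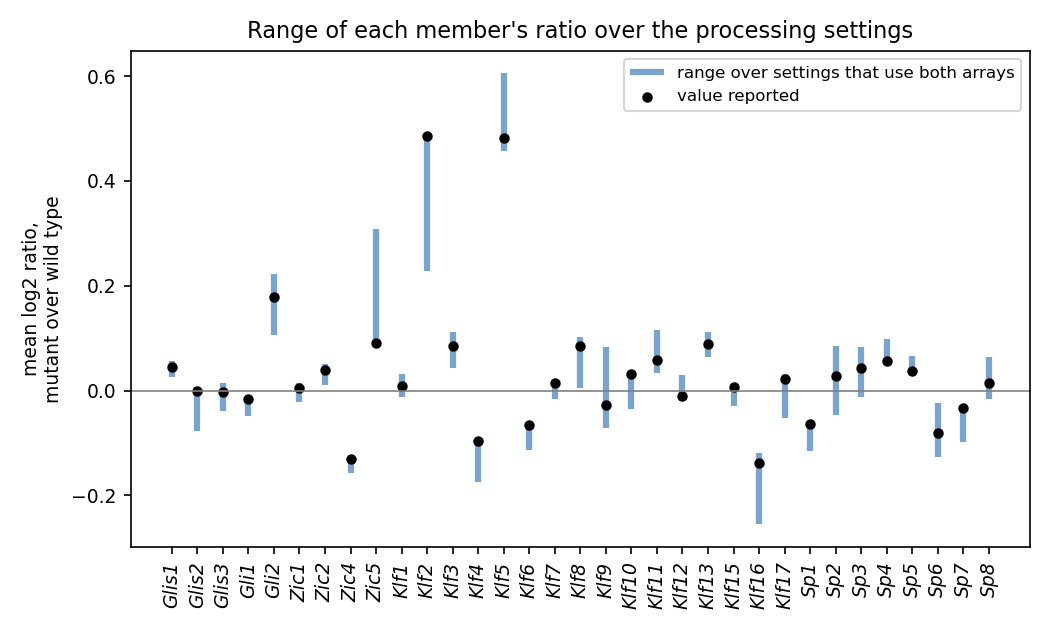
Mean log2 ratio of each member as reported (point) and its range over the processing settings that use both arrays (bar). Klf5 stays between 0.46 and 0.61, Klf2 runs from 0.23 to 0.49, and Zic5 from 0.09 to 0.31.

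Genes that act on Gli and Glis proteins or read them out also had small ratios. Of 20 listed, 17 were measured, with a median of 0.029, and 0 passed the 2-fold, 1.5-fold or 1.2-fold rule, beside 4.28% of all genes for the last. Boc, a Hedgehog co-receptor, had 0.33 and 0.24 with a mean of 0.28. Smo, the transducer of the pathway, had a mean of 0.24 from its brighter probe and -0.07 from the other. Ptch1 and Hhip, which Hedgehog signalling induces, had 0.03 and 0.014. Of 22 other zinc finger genes outside the family, 20 were measured with a median of -0.061, and 11 (55%) were below 0 on both arrays, against 30.5% of all genes. Among them Zfp148, which binds GC-rich promoters, passed the 1.2-fold rule as lower, with -0.29 and -0.35 and a second probe at -0.26, beside 425 of all genes (2.57%). St18, a neural and endocrine factor, had a mean of -0.27 and a second probe at -0.20.

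**Figure D5:**
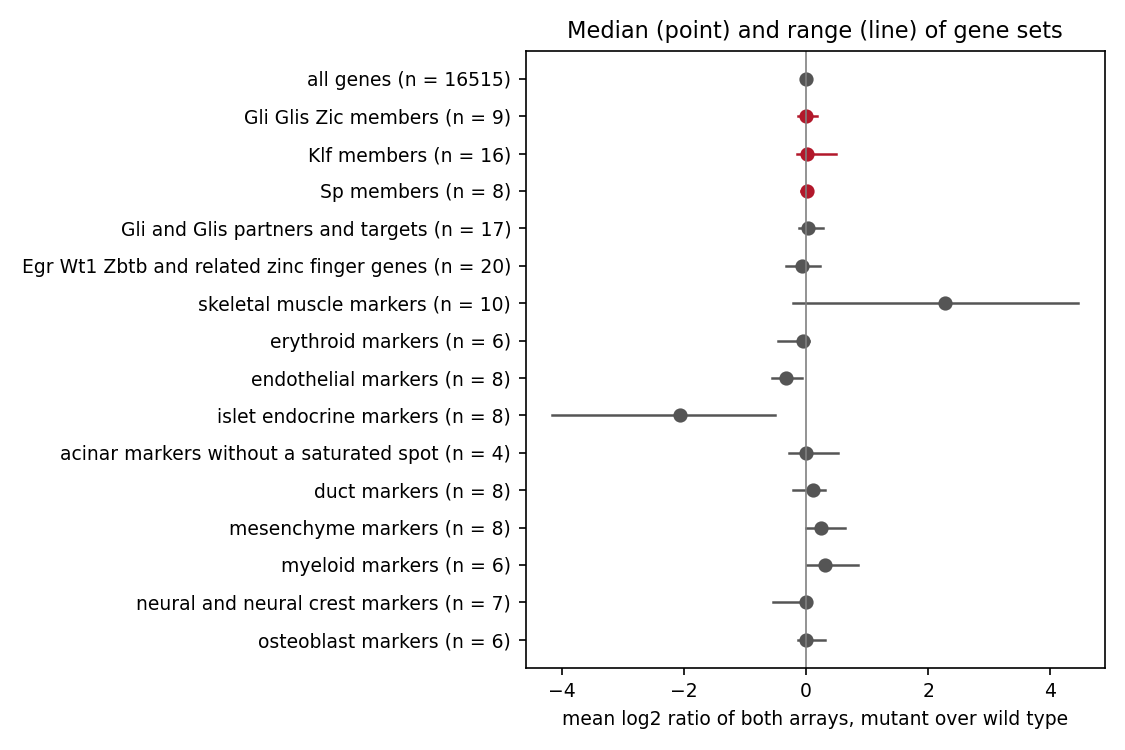
Median (point) and range (line) of the mean log2 ratio of mutant over wild type in each gene list, with n genes measured and all genes shown by their median alone. The medians of the 3 member families lie between 0.005 and 0.021, while skeletal muscle markers reach 4.46 and islet hormones reach -4.16, the value of Ins1, which is only a bound because its wild-type spot was saturated on 1 array.

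Islet and skeletal muscle markers differed by far more than the members, and the other marker lists had smaller medians. The part of these markers in the members' values was not tested. The labelled tissue, pancreas, showed in the acinar enzyme genes Cpa1, Cel and Ctrb1, which were saturated in mutant and WT on either array and so have no ratio. The 4 other measured acinar genes had a median of -0.007, with Ptf1a at 0.52 and Bhlha15 at -0.28, whose second probe had -0.095. Of 8 islet endocrine genes, 7 passed the 2-fold rule as lower, with a median of -2.06. Ins1 was at least 17.8-fold lower, with WT saturated on 1 array, and Ins2 at least 11.0-fold lower, with WT saturated on both. Skeletal muscle genes ran from -0.21 to 4.46 with 6 of 10 past the 2-fold rule as higher, led by Myl1 at 4.46 and Tnnc2 at 3.60. Beside Klf5, an epithelial factor, the 8 duct markers ran from -0.21 to 0.30 with a median of 0.12, led by Spp1 at 0.30 and Krt7 at 0.28. Beside Klf2, the 8 endothelial markers ran from -0.55 to -0.06, with a median of -0.32. By the 1.2-fold rule 4 of them were lower, beside 2.57% of all genes, led by Flt1 at -0.55 and Egfl7 at -0.42. The second probe of Flt1 also had -0.55. Cdh5, another of the 4, had -0.35 from the probe used but 0.07 from its second probe. The 6 myeloid markers ran from 0.02 to 0.86 with a median of 0.31, led by Lyz2 at 0.86 and Fcgr3 at 0.55. The second probes of Lyz2 and Fcgr3 had lower means, 0.48 and 0.24. The 8 mesenchyme markers ran from 0.008 to 0.64 with a median of 0.24, led by Des at 0.64 and Pdgfra at 0.45, whose second probe had 0.04. Beside Klf1, the 6 measured erythroid markers had a median of -0.05, with Hba-a1 at -0.46 and Alas2 at -0.26. Beside Sp7, the 6 osteoblast markers had a median of -0.006, with Spp1 at 0.30 and Runx2 at -0.13. The 3 other probes of Runx2 ran from -0.20 to 0.05. Beside the Zic genes, the 7 measured neural markers had a median of -0.003, with Elavl4 at -0.54, its second probe at -0.15, and S100b at -0.42.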

How the data were processed

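Per the labels, 500 ng of pooled RNA was amplified and labelled, with 750 ng of labelled cRNA per pool in a hybridisation of 17 hours. The deposited scanner files hold the mean spot intensity and median background intensity, and these intensities are not normalised. Per the file headers, the deposited files also hold a log10 ratio of processed signals and the software's p-value for it, which describes spot noise on 1 array and was not used as a test. The deposited series table holds log2 ratios, which match the software's ratio, turned to the mutant's side, within 0.002 for 99.985% and 99.983% of 41174 matched probes, with a median of 0 in each column. The submitters' processing notes name Agilent Feature Extraction 7.5, while the file headers give 8.5.1.1. Which of them made the values is not settled.

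Intensities were corrected with normexp (offset 50, which shrinks the ratios of dim spots) and loess within each array, control spots at weight 0, with limma 3.58.1 in R 4.3.3. Outlier spots were left out (15 and 53 of 41534), spots of a probe were averaged, and every ratio was written as mutant over wild type. The brightest unsaturated probe stood for a gene, and had to be well above background in a genotype's channel on both arrays. Both arrays hold the same pools, so rules of size were used and no test was made. The procedure was tested on simulated data. Python 3.11.15, pandas 2.3.3, numpy 2.4.6 and matplotlib 3.10.9 were used.

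Probes were named through the RefSeq table of GRCm38.p6, used for names, gene order and promoters: 22072 by accession, 143 by another RefSeq accession, 608 through a symbol found in the description, 493 through an older symbol, with 17858 left unnamed. Of the 47 member probes, 44 were named by accession and 3 by symbol. The members, lists and rules were chosen with earlier results of these data known. Every member is named, and of each other list the 2 genes with the largest mean ratio in size. Ptch1, Hhip, Cpa1, Cel, Ctrb1 and Cdh5 were added for context after their values were seen. Alternatives were the software's ratios, offset 0, median centring, the median over probes, no filter on dim probes, each array alone and the series table. The number of arrays limits the precision.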

Additional observations from a re-analysis of the deposited data

How the results depend on the processing

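The count of members past the 2-fold rule was 0 in all 8 alternatives. Past the 1.5-fold rule it was 1 with the software's ratios, with offset 0 and with the deposited series table, Klf5 each time, and 0 to 2 on single arrays (Klf2 and Klf5 with the mutant in Cy5). Genes past that rule numbered 270, 246 and 270 in those settings and 177 to 245 on single arrays, against 172. Past the 1.2-fold rule it was 1 with median centring and 1 with the median over probes, Klf5 both times, beside 852 and 598 genes against 707, and it was 2 with the software's ratios and with offset 0, beside 1089 and 994 genes, and on single arrays, beside 1201 to 1927. Median centring gave a median of -0.012 over all members and -0.018 over the Klf genes, relative to a shift of -0.014 over all genes. On single arrays the median of all members lay between 0.001 and 0.028, that of the Gli, Glis and Zic genes between -0.025 and 0.045, that of the Klf genes between -0.006 and 0.033 and that of the Sp genes between -0.034 and 0.033, so no direction is drawn from them. Glis3 had -0.040 with the software's ratios and the series table. The Gli and Glis partners had a median of 0.014 with the median over probes and 0.0029 to 0.021 on single arrays. The other zinc finger genes had -0.076 with the software's ratios and the series table, -0.069 with offset 0, -0.091 with median centring, -0.054 with the median over probes and -0.074 to -0.067 on single arrays. Genes lower by the 2-fold rule numbered 44 with the software's ratios and the series table and 42 with offset 0, against 25. Those higher numbered 50 and 49 in the same settings, against 38. The cause of these changes was not tested. Of the 99 values of the 33 members with the software's ratios, offset 0 and median centring, 79 stayed within 1 SD of the 2 arrays and 20 did not. The series table repeats the software's ratios, and a single array lies within that SD by construction, so neither is counted. Members of 0.3 or more in size in any setting of both arrays were Klf2, Klf5 and Zic5. No paired analysis was possible because each genotype is 1 pooled sample. The 8 dim members have a signal under 152 in at least 1 channel, near that of the negative controls.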

Other observations

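Clone sequences on the array that carry no gene name here, but whose description gives a member's product, gave 3 more values. A clone described as Zic4 had log2 ratios of 0.21 and 0.09, with a mean of 0.15, opposite in sign to the -0.13 of the named Zic4 probe. A clone described as Klf7 had -0.21 and -0.16, with a mean of -0.19, beside 0.014 for the named probe. A clone described as Klf13 had 0.15 and -0.12, with a mean of 0.015, beside 0.09. Whether these clones belong to the same transcripts was not tested.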
